A study of Mus musculus with 12 samples.

Results

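ATF4 is the transcription factor that cells raise when amino acids run short or proteins misfold, and the genes described here are 36 that are known as its targets or partners in amino acid synthesis and transport. They were followed in the mouse microvascular endothelial line MB114, plated on Matrigel, a tumour-derived basement membrane extract on which endothelial cells arrange into capillary-like networks. All probe sets of the arrays whose platform annotation gives one of the 36 symbols were taken, and by function the genes fall into 17 synthesis enzymes, 9 transporters and 10 regulators and stress targets. A probe set named for a single gene was found for 34 of the 36, out of 12393 genes on the array, and these made up 70 of 22690 probe sets. Of the 34 genes, 29 passed a filter on dim signals (at least 183.1 on 3 of the 12 arrays) and were tested, 13 synthesis enzymes, 7 transporters and 9 regulators. RNA was taken after 1, 5, 15 and 25 h on the gel, with 3 samples a time that the labels call biological replicates 1 to 3. Every sample came from this single line and the labels name no treatment other than the gel, while a culture off the gel was not analysed here, so all changes are between times on the gel. The labels do not say whether the replicates were separate platings of the cells, so the p-values measure the spread between these samples.

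When amino acids are scarce or the endoplasmic reticulum is under stress, kinases phosphorylate the initiation factor eIF2, general translation slows, and the Atf4 messenger is translated more. ATF4 protein then pairs with other bZIP factors, binds a composite C/EBP-ATF element, and switches on amino acid transporters, enzymes for asparagine, serine, glycine and one-carbon units, and feedback genes. Because much of this control is on translation, the level of the Atf4 messenger is not a reading of ATF4 protein. Growing cells also use these enzymes to supply nucleotides, which need glycine and folate-bound carbon.

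The promoters of several members carry the letters of that element, and 6 stretches are shown because the genes that hold it went in different directions over the time course. The motif searched was TGATGNAA on either strand, in the 300 bases from 250 before to 50 after each RefSeq start (mouse build GRCm38.p6). Entries were found for 31 members, not for Cth, Eif4ebp1, Slc1a5, Slc7a3 and Slc7a5. Of the 31 matched by symbol, 9 held it in at least 1 window (29.0%), as did 1219 of 27025 genes of the table (4.51%). Counted by window, the share was 9 of 38 (23.7%) for the members and 1304 of 32851 (3.97%) for all. The members were picked as known ATF4 targets or partners, so a share above that of all genes is not an independent result. The stretch of Asns lies at chr6:7693210-7693269 on the minus strand, that of Chac1 at chr2:119351023-119351082 on the plus strand and that of Slc7a11 at chr3:50443646-50443705 on the minus strand. Those of Nupr1, Got1 and Vldlr lie at chr7:126625547-126625606 (minus strand), chr19:43524674-43524733 (minus strand) and chr19:27216794-27216853 (plus strand, before the downstream start of 2). Each is 60 bases of sequence upstream of the start, written 5′ to 3′ in the direction of the gene, with the matching 8 bases in capitals.
Asns: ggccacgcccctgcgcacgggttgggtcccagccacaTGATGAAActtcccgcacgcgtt
Chac1: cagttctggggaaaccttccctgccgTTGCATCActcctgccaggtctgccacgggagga
Slc7a11: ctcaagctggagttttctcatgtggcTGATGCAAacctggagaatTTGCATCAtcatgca
Nupr1: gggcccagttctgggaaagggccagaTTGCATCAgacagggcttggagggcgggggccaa
Got1: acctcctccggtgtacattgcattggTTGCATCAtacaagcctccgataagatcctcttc
Vldlr: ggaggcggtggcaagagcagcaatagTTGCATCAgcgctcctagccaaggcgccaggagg
Only the Slc7a11 stretch held 2 matches, 1 on each strand, and they did not overlap. The match of Asns covers bases -23 to -16 from the start, and that of Chac1 lies farther up, at -193 to -186. Trib3 held a match just after its start, at bases 15 to 22, and Slc1a4 one across it, while Pycr1, which was not measured, held one at -103 to -96. The windows of Atf4, Mthfd2, Psat1, Phgdh and Slc38a2 held none, which says only that these letters are not in those windows. Whether ATF4 occupied any of these sites was not measured.

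The values are MAS5 signals, linear intensities, each combining the probes of 1 probe set, and they ran from 0.1 to 37764.1 over all probe sets. Array signals carry no read depth, so the number of arrays limits the precision. With 3 arrays on each side the smallest p of an exact permutation test is 0.1, so limma was used, which shares the spread over genes and all 12 arrays. Array medians ran from 153.6 to 209.2, and the spike-in controls were brighter on the 4 arrays numbered 1 (geometric means 129 to 174) than on the other 8 (65.6 to 99.7). Samples with the same number deviated together from their time means (r between 0.328 and 0.758 over genes), so a fit with the number as a block is given wherever it changes a call. Of 13 endothelial markers 3 passed the filter (Cd34, Cdh5 and Flt1), while the defining Pecam1, Tie1 and Vwf had mean signals of 17.9, 1.89 and 1.70. The summed signal of the 13 ran from 931 to 1462 at 1 h, 1463 to 2034 at 5 h, 1264 to 1788 at 15 h and 1186 to 1901 at 25 h. Of 10 pericyte and smooth muscle markers 5 passed, and their sum ran from 9258 to 22786, 8370 to 17033, 4472 to 6845 and 4149 to 6934 at these times, while Myh11 stayed at a mean of 21.3. Of 10 fibroblast markers 8 passed, with sums of 58883 to 79359, 50115 to 71769, 67832 to 99759 and 74823 to 110557. Leukocyte markers passed in 2 of 8 cases, Cd14 and Csf1r, with sums of 2370 to 5525, 4025 to 6050, 5909 to 6108 and 7130 to 10999, and Ptprc at a mean of 22.0. Of 8 epithelial markers 1 passed, with sums of 387 to 539, 392 to 427, 441 to 639 and 498 to 757. The part of these markers in the results on the members was not tested, and in bulk RNA fewer cells of a type and less RNA per cell cannot be told apart.

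Over the 4 times, the synthesis enzymes had their highest means at 5 h or before and their lowest at 25 h, the transporters split, and Atf4 itself fell after 5 h. Limma's F test over the 4 times, at an adjusted p under 0.05, called 19 of the 29 tested members, where 34.9% of the 7379 genes tested were called, and 23 with the replicate block (55.1% of all genes). These were 11 of 13 synthesis enzymes, 4 of 7 transporters and 4 of 9 regulators. The mean was highest at 5 h for 16 of 29 members (55.2%) and lowest at 25 h for 22 (75.9%), against 23.7% and 28.9% of all genes tested. All 13 tested synthesis enzymes had their lowest mean at 25 h, and 10 had their highest at 5 h and 3 at 1 h. Of the 29, 6 passed the filter on fewer than 12 arrays (Cth, Trib3, Slc1a5, Slc7a11, Vldlr and Sesn2), so their passing depended in part on the times at which they were bright.

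**Figure D1:**
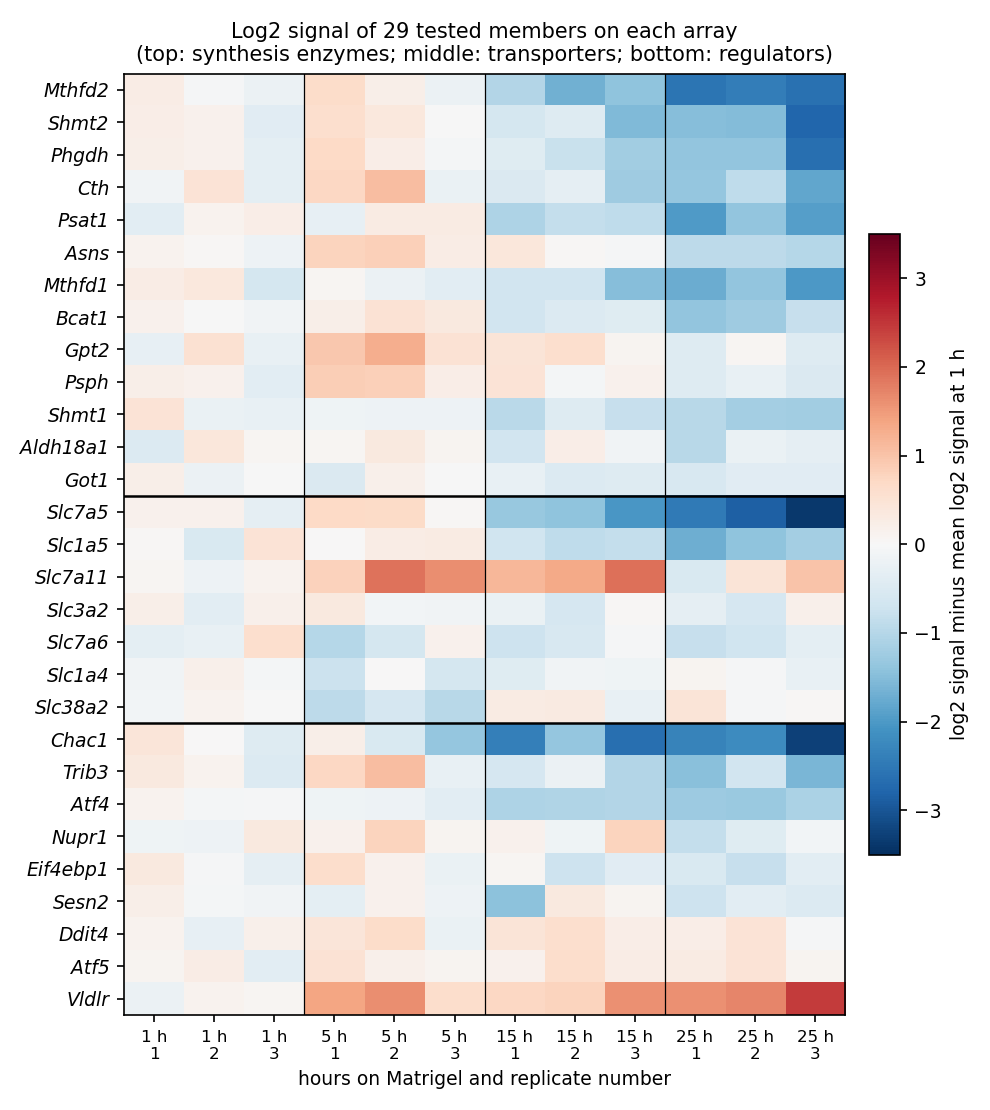
Log2 signal of the 29 tested members (rows, 13 synthesis enzymes at the top, 7 transporters, 9 regulators) on each of the 12 arrays (columns, by hours on Matrigel and replicate number), minus the gene's mean at 1 h. Blue fills most enzyme rows at 15 and 25 h, whereas Vldlr is red from 5 h on and Slc7a11 is red at 5 and 15 h.

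The comparison with the most called members was 25 h against 5 h. Between these times 19 of 29 members fell and 1 rose, where 32% of all genes tested were called, 14.6% lower and 17.5% higher (20 fell and 1 rose with the replicate block, 47.6% of all genes). The members' median log2 change was -1.05, and that of all genes 0.08. By role, 11 of 13 synthesis enzymes fell (median -1.54), 3 of 7 transporters fell and 1 rose (median -0.27), and 5 of 9 regulators fell (median -0.75). In the sample pairs of equal number the members' median was -1.33, -1.16 and -0.73 in replicates 1, 2 and 3. From 5 to 15 h, 10 members fell and 1 rose (14.5% of all genes called, 5.75% lower and 8.73% higher), and 15 fell and 1 rose with the replicate block (32.7% of all genes called). From 15 to 25 h, 3 fell (0.772% of all genes called, 0.745% lower and 0.0271% higher), and 10 fell with the block (4.26%). Against 1 h, 9 fell and 2 rose at 15 h (23.8% of all genes called, 8.44% lower and 15.4% higher), and 14 fell and 2 rose with the block (40.2%). At 25 h, 14 fell and 1 rose against 1 h (36.7%, 15.1% lower and 21.6% higher), and 18 fell and 1 rose with the block (51.2%). The samples of both times did not overlap for 21 members at 25 against 5 h (45.5% of all genes), 18 at 25 against 1 h (48.3%), 16 at 15 against 1 h (40.8%), 13 at 15 against 5 h (35.4%), 12 at 25 against 15 h (14.2%) and 7 at 5 against 1 h (18.5%). In fits without the block, leaving out single arrays moved 3 of the counts of called members by over 1.5 times. The share of all genes called fell with them. The 11 calls for 15 against 5 h became 6 without 5 h array 2 (7.67% of all genes) or 15 h array 3 (6.37%) and 7 without 5 h array 1 (10.1%) or 15 h array 1 (8.89%). For 15 against 1 h the 11 became 5 without 15 h array 3 (14.3%), 6 without 1 h array 1 (15.4%) and 7 without 1 h array 2 (17.7%). The 3 for 25 against 15 h became 0 without 15 h array 1, 15 h array 2 (0.176% each) or 25 h array 3 (0.257%). With all arrays 14 members had an unadjusted p under 0.05 for this step, but the share of all genes at that threshold was not counted. The count of adjusted calls was 1 without any single 1 h array, 5 h array 2, 25 h array 1 or 25 h array 2. In those fits 0.407% to 0.583% of all genes were called. Comparisons that share a time share its 3 arrays, so they are not independent of each other. Centring every array on its median shifted the median of all genes by -0.17 to -0.23 in the 4 comparisons of 15 or 25 h with 1 or 5 h. It gave 21 lower and 1 higher for 25 against 5 h (31.7% of all genes called), and 12 lower and 1 higher for 15 against 1 h (21.2%). Without the 4 arrays numbered 1, whose spike-ins were brighter, 10 members were called for 25 against 5 h (16.2% of all genes) and 18 with the block (33.8%), and the part of that difference between arrays was not tested.

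**Figure D2:**
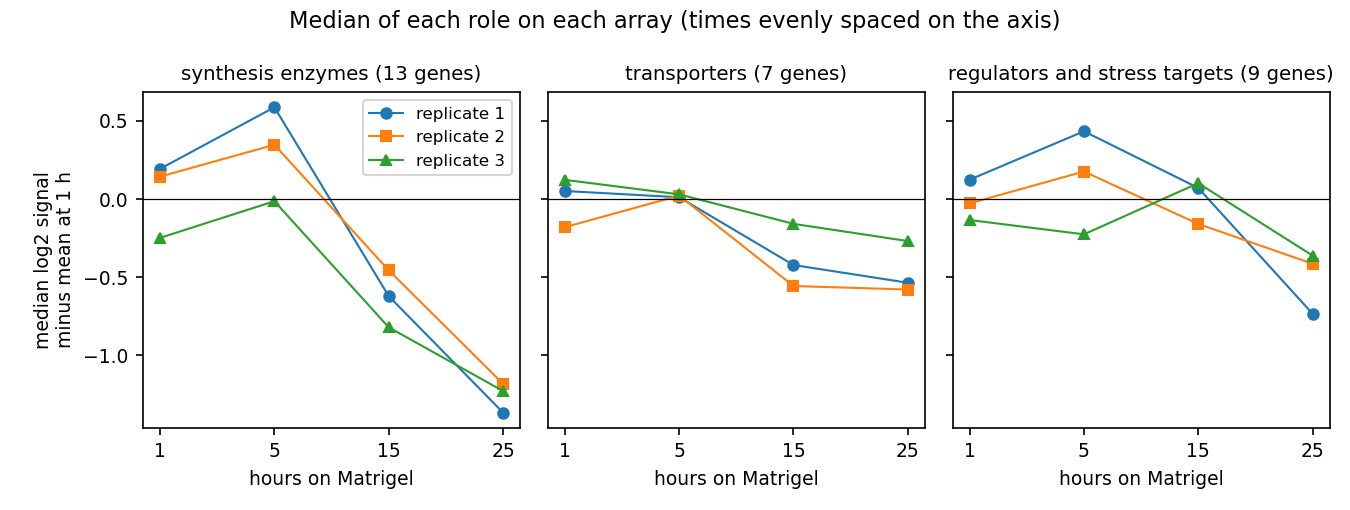
Median over the tested genes of each role of the log2 signal minus the gene's mean at 1 h (y axis), for the 3 replicate numbers at 1, 5, 15 and 25 h (x axis). The synthesis enzymes lie between -1.18 and -1.37 at 25 h in all 3 replicates, and the transporters between -0.27 and -0.58.

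From 5 to 25 h the steepest falls among the tested synthesis enzymes, by their brightest probe sets, were those of Mthfd2, Shmt2 and Phgdh. Psph (log2 change -1.05) and Shmt1 (-0.96), of the same serine and one-carbon group, fell less than Cth (-1.88) or Asns (-1.56). Mthfd2, the mitochondrial folate dehydrogenase that is high in growing cells, had signals of 3380.2, 2715 and 2418 on the 1 h arrays, 4407, 3223 and 2417 after 5 h, 1377, 868 and 1056 after 15 h and 476, 526 and 461 after 25 h. Neither the 15 h nor the 25 h samples overlapped with those at 1 or 5 h. From 5 to 25 h it fell 6.67-fold (log2 change -2.74 ± 0.23, SE; limma adjusted p = 1.22e-05), and 15 h was already lower than 5 h (log2 change -1.59, adjusted p = 0.00215). Shmt2, which makes glycine from serine in mitochondria, gave 3318, 3128 and 2126 on the 1 h arrays, 4213, 3618 and 2775 after 5 h, 1824, 2045 and 968 after 15 h and 994, 985 and 411 after 25 h. It fell 4.72-fold from 5 to 25 h (adjusted p = 0.000657) with no overlap of samples. Array 3 was the lowest of its time at every time for Shmt2.

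Phgdh opens serine synthesis by oxidising phosphoglycerate. Its signals were 5150.3, 5019 and 3536 on the 1 h arrays, 7258, 5264 and 4303 after 5 h, 3341, 2633 and 1955 after 15 h and 1718, 1737 and 722 after 25 h. The 25 h samples lay below all others, and the fall from 5 h was 4.24-fold (adjusted p = 0.000631). Psat1, the aminotransferase of the second step, had 2325, 3299.5 and 3561 on the 1 h arrays, 2478, 3646 and 3675 after 5 h, 1434, 1697 and 1633 after 15 h and 759.9, 1157 and 795 after 25 h. Here the times after 5 h formed 2 separate lower groups, and the fall from 5 to 25 h was 3.62-fold (adjusted p = 0.000115). Psph, the phosphatase that releases serine, ran differently: its mean was 1096 ± 223 (SD, n = 3) at 1 h, 1717 ± 396 after 5 h, 1245 ± 239 after 15 h and 814 ± 72.9 after 25 h. It fell 2.07-fold from 5 to 25 h (adjusted p = 0.00352), while 25 h against 1 h did not pass (log2 change -0.41, 95% interval -0.89 to 0.07). The cytosolic enzymes Shmt1 and Mthfd1 fell 1.95-fold (adjusted p = 0.00622) and 2.90-fold (adjusted p = 0.00187) from 5 to 25 h, and both had also fallen since 1 h (adjusted p = 0.00194 and 0.000744).

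Single arrays and probe sets bear on this group, as 22 alternative settings showed, 12 of which left out 1 array each. Those 12 fits did not use the replicate block. With the block and all 12 arrays, all 60 calls of a member in a comparison were kept. The fall of Phgdh from 5 to 15 h (adjusted p = 0.0457) was kept in 9 of 22 alternatives (adjusted p 0.000524 to 0.465). For Phgdh the call was lost, among others, without array 1 or 2 of 1 h, array 1, 2 or 3 of 5 h or array 1, 2 or 3 of 15 h. That of Shmt2 between the same times (adjusted p = 0.0443) was kept in 10 of 22 alternatives (adjusted p 0.000279 to 0.205). The losses for Shmt2 included the fits without array 1 or 2 of 1 h, array 1, 2 or 3 of 5 h or array 1 or 3 of 15 h. The further fall of Mthfd2 from 15 to 25 h (adjusted p = 0.0419) was kept in 5 of 22 alternatives (adjusted p 0.00220 to 0.440). This call was lost, among others, without array 1, 2 or 3 of 1 h, array 2 of 5 h, array 1, 2 or 3 of 15 h or array 1, 2 or 3 of 25 h. Another Mthfd2 probe set above the filter had a log2 change of -0.16 for that step (adjusted p = 0.974), and with the mean over both the call was lost (log2 change -0.65, adjusted p = 0.307). From 5 to 25 h that probe set was called, at -2.44 (adjusted p = 4.44e-05). With the mean over a gene's probe sets in place of the brightest, the log2 change from 5 to 25 h was -0.86 for Phgdh (adjusted p = 0.0672), -1.65 for Shmt2 and -2.31 for Shmt1. The dimmer Shmt1 probe sets above the filter fell more than the brightest one between these times, with log2 changes of -3.71, -2.96 and -1.63. The 3 other Phgdh probe sets that passed the filter had log2 changes of -1.11, -0.55 and 0.29 from 5 to 25 h, and the first of these was called (adjusted p = 0.0446). Another Shmt2 probe set above the filter gave -2.15 between these times (adjusted p = 0.00190). A further Shmt2 probe set gave -0.55 (adjusted p = 0.212), and -0.13 from 5 to 15 h (adjusted p = 0.828).

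Asparagine, branched-chain and alanine enzymes had their highest means at 5 h. Asns, asparagine synthetase, whose promoter stretch above carries the element close to the start, had 2141, 2016 and 1750.1 on the 1 h arrays, 3358, 3484 and 2343 after 5 h, 2581, 2033 and 1900.3 after 15 h and 1039.8, 1041 and 981 after 25 h. All 5 h samples were above those at 1 h, the 15 h samples overlapped both, and all 25 h samples were lowest. It fell 2.96-fold from 5 to 25 h (log2 change -1.56 ± 0.18, SE; adjusted p = 9.92e-05) and 1.92-fold from 1 to 25 h (adjusted p = 0.00173), while 15 against 1 h gave a log2 change of 0.13 (adjusted p = 0.641; below 0 after centring of arrays). Most of its fall came after 15 h (2.11-fold, adjusted p = 0.0189), a call that was kept in 15 of 22 alternatives (adjusted p 0.000833 to 0.488). For Asns the call was lost, among others, without array 1 or 2 of 15 h or array 1 or 3 of 25 h. Its dimmer probe set gave log2 changes of -0.72 and -0.44 for 25 against 15 h and 25 against 1 h, neither called. Bcat1, which starts the breakdown of branched-chain amino acids in the cytosol, fell 2.82-fold from 5 to 25 h, from 4470.4 ± 460.0 to 1605 ± 348 (adjusted p = 9.31e-05), and was lower at 15 h than at 5 h in all samples (adjusted p = 0.00690). Gpt2, the mitochondrial alanine transaminase, had means of 363 ± 124, 671 ± 172, 462 ± 79.6 and 295 ± 63.9 at the 4 times. It fell 2.26-fold from 5 to 25 h (adjusted p = 0.00571) and was not called at 25 h against 1 h (log2 change -0.27, 95% interval -0.85 to 0.31). The dimmer Gpt2 probe sets above the filter gave log2 changes of -1.08 (adjusted p = 0.0197) and -0.66 (adjusted p = 0.186) from 5 to 25 h.

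Cth, the last enzyme of cysteine synthesis from methionine, had 296, 449 and 254 on the 1 h arrays, 533, 678 and 278 after 5 h, 229, 262 and 137 after 15 h and 125, 174 and 91.8 after 25 h. All 25 h samples were under the filter value, and those at 15 h lay below all at 5 h. From 5 to 25 h Cth fell 3.69-fold (adjusted p = 0.00252). Against 1 h it fell 2.56-fold (adjusted p = 0.0130), a call that was kept in 19 of 22 alternatives (adjusted p 6.06e-05 to 0.108). The losses for Cth included the fits without array 2 of 1 h or array 3 of 25 h. A pair of enzymes had no call in any comparison without the block: Aldh18a1, which opens proline synthesis, with means from 1724 ± 191 at 5 h to 1104 ± 281 at 25 h, and Got1, the cytosolic aspartate transaminase, from 1891 ± 269.6 at 1 h to 1375 ± 97.3 at 25 h. For 25 against 5 h their log2 changes were -0.67 (95% interval -1.27 to -0.07; adjusted p = 0.00256 with the replicate block) and -0.34 (-0.75 to 0.07). Another Aldh18a1 probe set, dimmer but above the filter, was called for the same times (log2 change -1.01, adjusted p = 0.00223 over all probe sets above the filter).

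**Figure D3:**
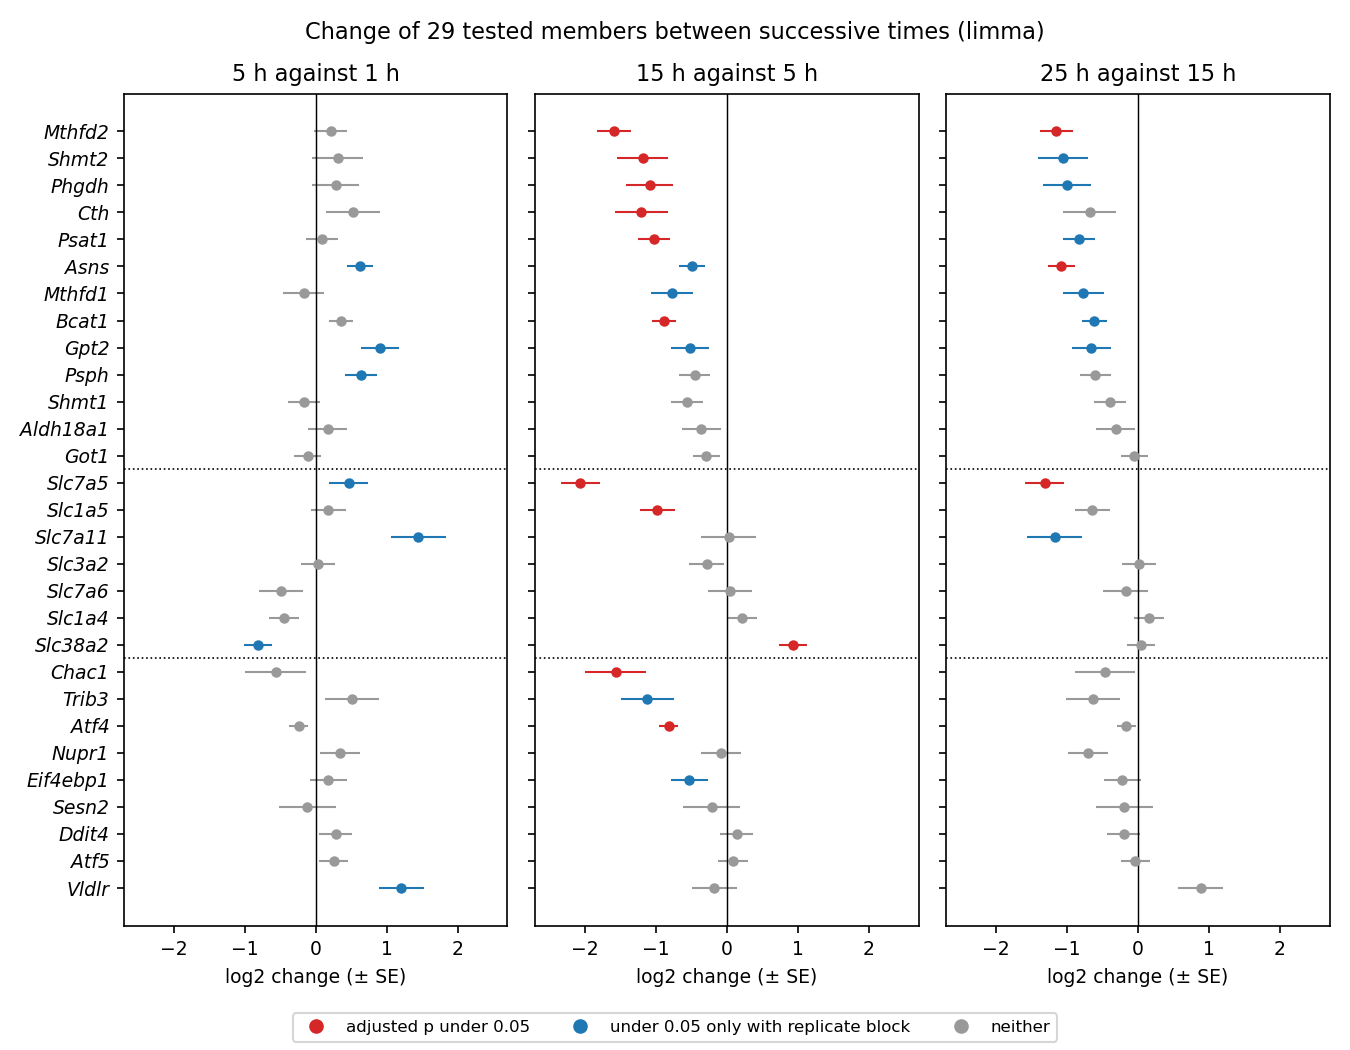
Log2 change (x axis, points, with SE as bars) of the 29 tested members between successive times, from limma. Red points were called at an adjusted p under 0.05, blue points only with the replicate block, and the middle panel holds the most red points, 11.

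The transporters split into members that fell, members that dipped or peaked, and members without a call. Slc7a5, the light chain that carries leucine and other large neutral amino acids, had 2981, 2978 and 2128 on the 1 h arrays, 4349.9, 4221 and 2719 after 5 h, 1054, 1004 and 649 after 15 h and 476, 368 and 257 after 25 h. Samples at 15 and 25 h lay below all earlier ones and did not overlap with each other. The fall from 5 to 25 h was 10.3-fold (log2 change -3.37 ± 0.27, SE, adjusted p = 1.05e-05). That was the largest among the 29 tested members by their brightest probe sets, though a dimmer Shmt1 probe set fell more. By 15 h Slc7a5 had fallen 4.17-fold (adjusted p = 0.00196). The further fall from 15 to 25 h (log2 change -1.31, adjusted p = 0.0491) was kept in 9 of 22 alternatives (adjusted p 0.000352 to 0.498). This call was lost, among others, without array 1, 2 or 3 of 1 h, array 1 or 2 of 5 h, array 1 or 2 of 15 h or array 2 or 3 of 25 h. Those fits did not use the block. Within the sample pairs of equal number the log2 changes for that step were -1.15, -1.45 and -1.33. Slc3a2, the heavy chain that brings Slc7a5 to the membrane, had 6825, 4514 and 6610.1 on the 1 h arrays, 7434, 5462 and 5375 after 5 h, 5047, 3929.7 and 6086 after 15 h and 4725, 3939.9 and 6702 after 25 h. Its samples overlapped at all times, and for 25 against 5 h the log2 change was -0.27 with a 95% interval of -0.79 to 0.26, while that of Slc7a5 was -3.96 to -2.78. The difference between the partners was not tested. Slc1a5, the sodium-coupled glutamine carrier, gave 424, 285 and 567 on the 1 h arrays, 412, 488 and 496 after 5 h, 253, 223 and 231 after 15 h and 124, 155 and 178 after 25 h. It fell 3.07-fold from 5 to 25 h (adjusted p = 0.000473), with every 25 h sample under the filter value. Its fall from 5 to 15 h (adjusted p = 0.0214) was kept in 17 of 22 alternatives (adjusted p 0.00444 to 0.112). For Slc1a5 the call was lost, among others, without array 2 or 3 of 5 h or array 2 or 3 of 15 h.

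Slc38a2, a carrier of small neutral amino acids that is known to respond to amino acid shortage, had its lowest mean at 5 h. It had 4332, 4991 and 4556 on the 1 h arrays, 2469, 3101 and 2356 after 5 h, 5688, 5713 and 3832 after 15 h and 6301, 4503 and 4732 after 25 h. All 3 samples at 5 h were below the other 9. It rose 1.90-fold from 5 to 15 h (adjusted p = 0.00964) and stood 1.95-fold higher at 25 h than at 5 h (adjusted p = 0.00285), while the drop from 1 to 5 h was called only with the block (log2 change -0.82, adjusted p = 0.0603, 0.00667 with the block). Slc7a11, the cystine-glutamate exchanger with a matched site on both strands, was brighter at 5 and 15 h than at 1 h, with 111, 94.3 and 116 on the 1 h arrays, 188, 396 and 330.2 after 5 h, 238, 269 and 406 after 15 h and 73.7, 145 and 212 after 25 h. It was 2.77-fold higher at 15 h than at 1 h (adjusted p = 0.0167), a call that was kept in 20 of 22 alternatives (adjusted p 0.00138 to 0.0739). The losses for Slc7a11 were the fits without array 2 of 1 h or array 3 of 15 h. Its 1 h samples were all under the filter value. From 5 to 25 h it fell 2.21-fold (adjusted p = 0.0395) with overlapping samples, a call that was kept in 15 of 22 alternatives (adjusted p 0.00508 to 0.158). This call was lost, among others, without array 2 or 3 of 5 h, array 2 of 15 h or array 1 or 2 of 25 h. Slc1a4, a carrier of alanine, serine and cysteine, also had its lowest mean at 5 h, 375 ± 113, and its highest at 1 h, 499.9 ± 56.8. The means of Slc7a6, an exchanger of basic amino acids, lay between 601 ± 108 and 951 ± 361. Neither carrier was called in any comparison without the block. With the block Slc7a6 was lower than at 1 h at 15 h (log2 change -0.44, adjusted p = 0.0342) and at 25 h (-0.61, 0.00438).

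**Figure D4:**
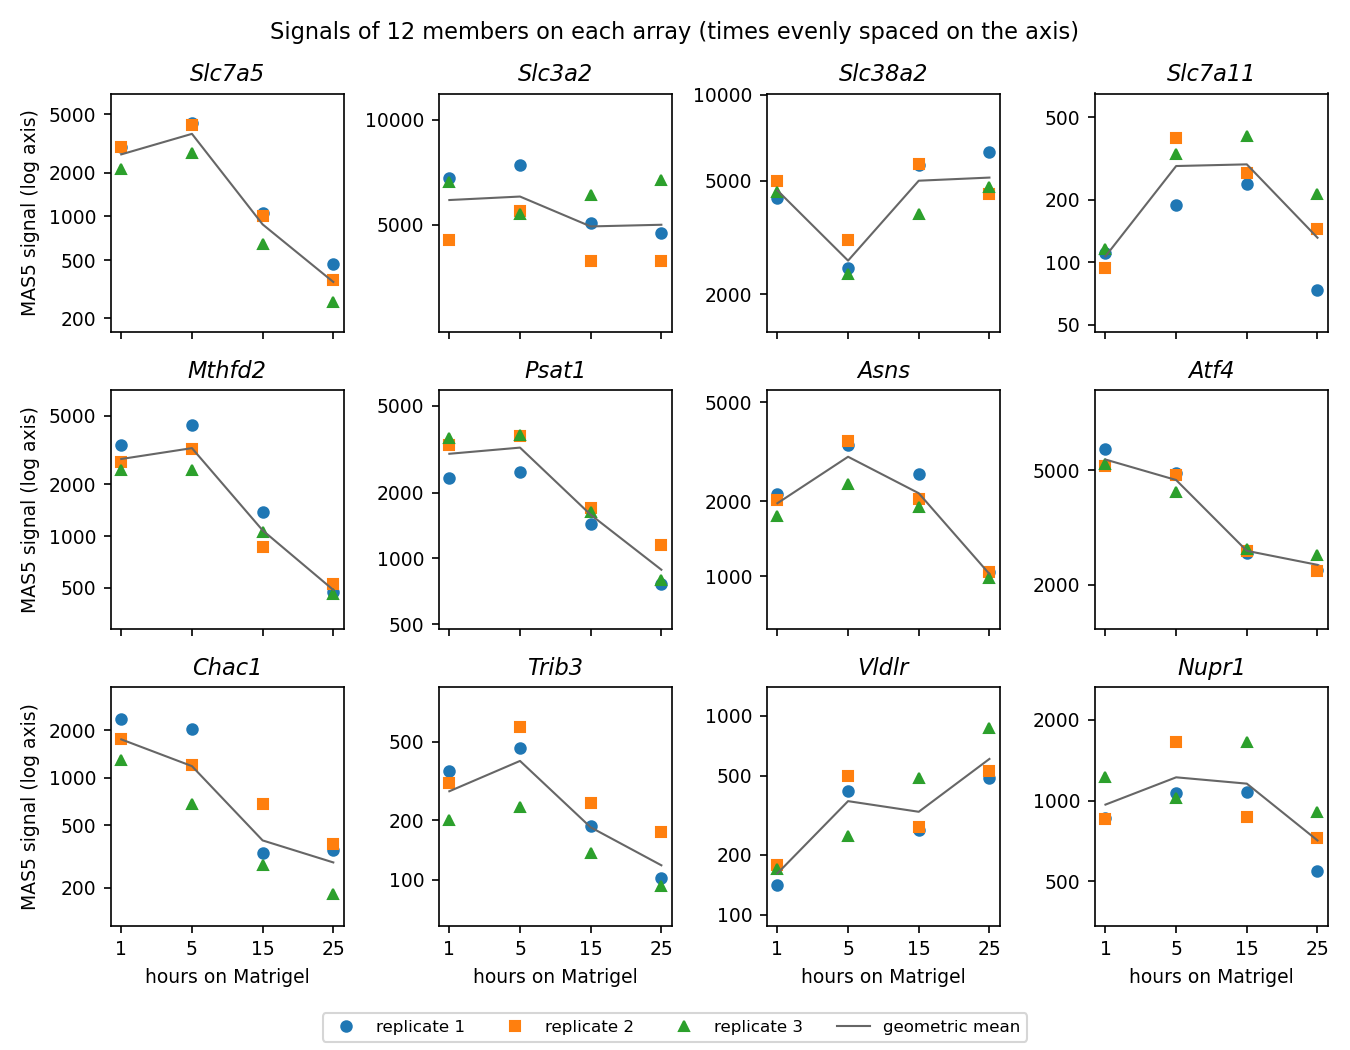
MAS5 signal (log axis) of 12 members against hours on Matrigel, with 1 point per array by replicate number and a line through the geometric means. Slc38a2 is lowest at 5 h, Slc7a11 is higher at 5 and 15 h than at 1 h, and Slc7a5 ends between 257 and 476 at 25 h.

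Among the regulators, Atf4 had 5950.1, 5181 and 5279.9 on the 1 h arrays, 4885, 4826 and 4215 after 5 h, 2578, 2624 and 2665 after 15 h and 2258, 2239 and 2546 after 25 h. The samples of each time lay close together, and the times formed descending groups without overlap on this brightest probe set. By it the messenger fell 1.77-fold from 5 to 15 h (log2 change -0.82 ± 0.14, SE, adjusted p = 0.00300) and 2.33-fold from 1 to 25 h (adjusted p = 4.92e-05). A dimmer Atf4 probe set above the filter also fell from 5 to 15 h (log2 change -1.06, adjusted p = 0.00547). From 15 to 25 h it had a log2 change of 0.11 (adjusted p = 0.981), where the brightest gave -0.16. From 1 to 5 h, when Asns, Psph and Gpt2 had their higher means, Atf4 had a log2 change of -0.24 (95% interval -0.53 to 0.06; not called). Chac1, a glutathione-degrading enzyme and stress marker, had 2350.3, 1767 and 1293 on the 1 h arrays, 2031, 1199 and 682 after 5 h, 335, 679.8 and 280.4 after 15 h and 349, 380.1 and 183 after 25 h. It was highest on average at 1 h, and its 15 and 25 h samples lay below all at 1 h. The fall was 6.04-fold from 1 to 25 h (adjusted p = 0.000602) and 4.09-fold from 5 to 25 h (adjusted p = 0.00346), and that from 5 to 15 h (adjusted p = 0.0291) was kept in 17 of 22 alternatives (adjusted p 0.000814 to 0.271). For Chac1 the call was lost, among others, without array 1 or 2 of 5 h or array 1 or 3 of 15 h.

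Trib3, a pseudokinase that feeds back on ATF4, had 356, 308 and 202 on the 1 h arrays, 464, 591 and 232 after 5 h, 188, 244 and 136 after 15 h and 101, 175 and 93.4 after 25 h. It fell 3.38-fold from 5 to 25 h (adjusted p = 0.00401), or by a log2 change of -1.05 with the mean over its probe sets (adjusted p = 0.0318), and the dimmer one alone gave -0.35. Against 1 h its fall (2.37-fold, adjusted p = 0.0217) was kept in 16 of 22 alternatives (adjusted p 0.000474 to 0.241). The losses for Trib3 included the fits without array 1 or 2 of 1 h or array 1 or 3 of 25 h. This call was also lost with the mean over its probe sets (log2 change -0.63, limma adjusted p = 0.169). The dimmer probe set alone gave -0.007 for 25 against 1 h (adjusted p = 0.992). Vldlr, a lipoprotein receptor that ATF4 is known to raise under stress, was higher at 25 h than at 1 h, with 141, 177 and 169 on the 1 h arrays, 419, 497 and 248 after 5 h, 266, 277 and 485 after 15 h and 484, 530.2 and 873 after 25 h. All 1 h samples were under the filter value and below every later sample, while those at 5 and 15 h overlapped (log2 change -0.18, not called). It was 3.77-fold higher at 25 h than at 1 h (log2 change 1.91 ± 0.32, SE; adjusted p = 0.000611), the opposite direction to Chac1, and both promoters carry the same 8 letters. The rise by 15 h (2.04-fold, adjusted p = 0.0324) was kept in 13 of 22 alternatives (adjusted p 0.0134 to 0.146). This call was lost, among others, without array 1, 2 or 3 of 1 h or array 3 of 15 h, and also after median centring or quantile normalization.

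Eif4ebp1, the repressor of cap-dependent translation, and Nupr1, a stress-induced chromatin protein, fell 1.68-fold (adjusted p = 0.0435) and 1.72-fold (adjusted p = 0.0483) from 5 to 25 h. Both calls were close to the threshold. That of Eif4ebp1 was kept in 9 of 22 alternatives (adjusted p 0.00443 to 0.171). For Eif4ebp1 the call was lost, among others, without array 2 of 1 h, array 1 or 2 of 5 h, array 3 of 15 h or array 1, 2 or 3 of 25 h. Its dimmer probe sets above the filter gave log2 changes of -0.83 (adjusted p = 0.0509) and -0.12 (adjusted p = 0.808) for these times. The Nupr1 call was kept in 9 of 22 alternatives (adjusted p 0.0140 to 0.248). The losses for Nupr1 included the fits without array 1 or 2 of 1 h, array 1, 2 or 3 of 5 h, array 1 of 15 h or array 1 or 2 of 25 h. The other 3 regulators had no call in any comparison, with or without the block: Atf5, a relative of ATF4, had means of 651 ± 139 to 817 ± 143, Ddit4, an inhibitor of mTORC1, 1703 ± 279 to 2272 ± 284, and Sesn2, a leucine sensor, 120.3 ± 15.0 to 174 ± 22.0. Sesn2 reached the filter value on 4 arrays, so its signals are near the dim end.

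The first step, from 1 to 5 h, was small in limma's test. Of the 29 members 0 were called, where 1.65% of all genes were (0.881% higher and 0.772% lower). At an unadjusted p under 0.05 there were 6 members, and the share of all genes at that threshold was not counted. The members' median log2 change was 0.21 against 0.04 for all genes. With the replicate block 6 were higher and 1 lower, where 7.77% of all genes were called. These were Gpt2 (log2 change 0.90, adjusted p = 0.00484 with the block and 0.129 without), Slc7a11 (1.44, 0.00795 and 0.0934), Asns (0.62, 0.0157 and 0.128), Vldlr (1.21, 0.0249 and 0.0872), Psph (0.64, 0.0395 and 0.210) and Slc7a5 (0.47, 0.0458 and 0.488), with Slc38a2 lower. Each of the 7 had the same sign in all 3 replicate numbers, which the block fit that picked them favours, so it is not separate support. Without the 4 arrays numbered 1, the block fit called 1 member for this step, where 2.06% of all genes were called, a share near that of the members.

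The block also added calls later. From 5 to 15 h it added falls of Asns (0.0163), Gpt2 (0.0272), Mthfd1 (0.00448), Trib3 (0.00263) and Eif4ebp1 (0.0404). From 15 to 25 h it added Phgdh (0.00403), Shmt2 (0.00277), Psat1 (0.00590), Mthfd1 (0.0218), Bcat1 (0.0373), Gpt2 (0.0384) and Slc7a11 (0.0342), all as adjusted p from limma with the block. Against 1 h it added falls of Phgdh (0.00206), Shmt2 (0.00126), Cth (0.0113) and Trib3 (0.0454) at 15 h, and of Aldh18a1 (0.0129), Eif4ebp1 (0.0183) and Got1 (0.0487) at 25 h.

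Another 5 members on the array did not pass the filter, and their levels are not known to lie above background. Their brightest probe sets had mean signals over 12 arrays of 142 for Stc2, a secreted stress glycoprotein, 139.9 for Slc7a3 and 104 for Slc7a1, both carriers of arginine and lysine, 119 for Cbs, which begins cysteine synthesis from homocysteine, and 99.9 for Bcat2, the mitochondrial branched-chain transaminase. When the filter was dropped and all 34 members were tested over 12393 genes, 17 were called from 5 to 25 h (18.3% of all genes), and each of the 17 had also been called with the filter. Mthfd1l, the mitochondrial formate-producing enzyme, and Pycr1, the last enzyme of proline synthesis, have no probe set here whose annotation names them alone.

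Other genes of the pathway were taken from lists of aminoacyl tRNA synthetases, of the integrated stress response and of further amino acid metabolism. Of 11 tested aminoacyl tRNA synthetases, which charge tRNAs and are known ATF4 targets in part, 10 fell from 5 to 25 h (14.6% of all genes did), with a median log2 change of -1.04. From 1 to 25 h 7 fell (15.1% of all genes). Yars fell 2.94-fold (adjusted p = 0.000112), Aars 2.31-fold (adjusted p = 0.000420) and Gars 2.20-fold (adjusted p = 0.000703) from 5 to 25 h. Their medians from 1 to 5 h and from 15 to 25 h were 0.26 and -0.46, with 0 called by limma in either step. With the block 3 were called in each, where 7.77% and 4.26% of all genes were. At an unadjusted p under 0.05 there were 3 and 6 synthetases, and all genes were not counted at that threshold. Of 8 synthetases matched to promoters, 5 held the letters of the element (62.5%), where 4.51% of all genes of the promoter table did. For the integrated stress response list it was 1 of 12 (8.33%), and for further amino acid metabolism and transport 1 of 17 (5.88%). Because the synthetases are in part known ATF4 targets, their share is not an independent result either.

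The genes of the integrated stress response, which sense stress and reset eIF2, had mixed directions. Of 11 tested, 2 fell by 5 h (0.772% of all genes did). At 25 h against 1 h 3 were lower and 2, Cebpb and Gadd45a, higher, with a median of 0.16. With 36.7% of all genes called between these times, that count is near the background. Ppp1r15a, the inducible subunit that removes the eIF2 phosphate, went from 1516 ± 90.3 at 1 h to 619 ± 117 at 5 h and 522 ± 137 at 25 h, a fall of 2.48-fold by 5 h (adjusted p = 0.0150). Atf3, a stress-induced factor that is also an early response gene, fell 3.90-fold by 5 h (adjusted p = 0.0323), and Ppp1r15b, the constitutive subunit, 2.19-fold by 25 h (adjusted p = 0.00171). Of 7 further genes of amino acid metabolism and transport, 2 rose from 5 to 25 h, close to the 17.5% of all genes that did. Asl, which makes arginine from argininosuccinate, rose 1.81-fold (adjusted p = 0.00914), and Slc1a3, a glutamate carrier, rose 5.39-fold (adjusted p = 0.0200), whereas Slc6a9, the glycine carrier, had a log2 change of -0.11 (adjusted p = 0.654) and was 1.63-fold higher at 15 h than at 1 h (adjusted p = 0.00963).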

How the data were processed

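RNA of 12 MB114 samples on Matrigel was measured on Affymetrix mouse arrays, 1 array a sample. The deposited values are linear intensities, MAS5 signals per the submitters' processing notes, with a trimmed mean near 500.2 on each array. Signals were taken to log2 without further scaling. Symbols came from the platform annotation (20380 probe sets with 1 symbol, 691 with several, 1555 with none, 64 controls), and 20351 matched RefSeq by Entrez number with 0 changed. Probe sets were kept where 3 or more of the 12 arrays reached 183.1, the overall median signal, and each gene was represented by its brightest one (mean of log2 values).

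The 4 times were fitted together in limma 3.58.1 (R 4.3.3; eBayes with intensity trend; 8 residual degrees of freedom), with Benjamini-Hochberg adjustment over 7379 genes. All limma tests were 2-sided, and adjusted p refers to these fits throughout. Fold changes are ratios of geometric means. Scripts were tested on simulated data. The main fits did not pair samples. Replicate numbers were taken as pairs for the block fits and for changes within sample pairs. Deviations from time means correlated in every pair (r 0.328 to 0.758), and 12 of 12 arrays were closest to one of their own number. Alternatives were the replicate block, median centring, quantile normalization, an offset of 50, no filter, a filter on 6 arrays, the mean over probe sets, no intensity trend, and leaving out each array (without the block). Leaving out the 4 arrays numbered 1, with and without the block, was added after seeing the data. The 36 members and all lists were chosen with earlier results of these data known. All members are named, with tests for those called in a comparison, and up to 3 genes of each other list by smallest F test p; Cebpb and Gadd45a were named after their values were seen. Promoters were read from a RefSeq table of GRCm38.p6. Figures used matplotlib 3.10.9 and Python 3.11.15.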

Additional observations from a re-analysis of the deposited data

How the results depend on the processing

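Counts of called members are given for the settings that moved them by over 1.5 times. With the replicate block, which follows from the pairing of samples by number, 7 members were called for 5 against 1 h (7.77% of all genes) in place of 0. For 25 against 15 h 10 were called (4.26%) in place of 3, and no call of the 60 made without the block was lost with it. For 25 against 15 h the count was 1 with an offset of 50 (0.745% of all genes) and 1 without the filter (0.395%). It was also 1 with the mean over probe sets (0.827%) and 1 without the intensity trend (0.569%). For 15 against 1 h it was 7 without the filter (12.6% of all genes) in place of 11 (23.8%). Without the 4 arrays numbered 1 the counts were 0 for 15 against 5 h (3 of 7379 genes called, 0.0407%), 0 for 25 against 15 h (0 genes), 5 for 15 against 1 h (6.37%), 10 for 25 against 5 h (16.2%) and 11 over the 4 times (14.0%). These fits had fewer samples and called fewer of all genes too, so the zeros are not particular to the members. In the same samples with the block they were 1 for 5 against 1 h (2.06%) and 1 for 25 against 15 h (0.813%). The other counts of that block fit were closer to those of the main fit. They were 13 for 15 against 5 h (18.1%), 10 for 15 against 1 h (26.3%), 18 for 25 against 5 h (33.8%) and 19 over the 4 times (37.8%). When each array was left out in turn, the counts ran from 0 to 1 for 5 against 1 h, 6 to 11 for 15 against 5 h, 0 to 3 for 25 against 15 h, 5 to 13 for 15 against 1 h, 13 to 16 for 25 against 1 h, 17 to 20 for 25 against 5 h and 17 to 19 over the 4 times. Of the 60 calls of a member in a comparison, 39 were kept in all 20 alternatives other than the 2 without the arrays numbered 1 and 25 in all 22, and 0 changed sign. Members without a call did change sign with the scaling of arrays: Atf5, Ddit4, Slc7a6 and Slc7a11 for 15 against 5 h, Asns and Slc38a2 for 15 against 1 h, Slc38a2 for 25 against 1 h, Atf5 and Ddit4 for 25 against 5 h, and Slc3a2 for 25 against 15 h and 5 against 1 h. Beyond the cases named, the cause was not tested. With 3 arrays a time from 1 cell line, signals near the filter value (Cth, Trib3, Slc1a5, Slc7a11, Vldlr and Sesn2) limit what can be read from folds of these genes.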
